A study of Homo sapiens with 16 samples.

Results

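The RNA of HEK-293 cells with induced HCF-2 Fn3nc* was compared with that of cells with induced HCF-2 WT after 1 day of doxycycline, the first time point of the study. The comparison took the 2 HCF-2 Fn3nc* and the 2 HCF-2 WT libraries labelled with day 1, which are 4 of the 16 poly(A) RNA-seq libraries. The other 12 libraries are the same lines on days 2, 4 and 6, with 2 libraries for each line and day. Both lines are Flp-In T-REx-HEK-293 cells, an embryonic kidney line in which a transgene sits at a preset integration site and is switched on by doxycycline, here at 1 μg/ml. In one line the transgene encodes HCF-2 WT with Flag and Cherry tags, and in the other the same protein with a substitution in the Fn3n and another in the Fn3c segment, which the study made to disrupt the contact between these segments. Both lines went through Flp recombinase and hygromycin selection, were kept in tetracycline-free serum and carry the endogenous HCFC2 gene. The sources used here do not say whether each line is a clone or a pool. Neither an uninduced nor an untransfected library is part of the comparison, so an effect of the mutant protein, a difference between the lines before induction and an effect of integration cannot be told apart. A difference in culture or harvest between the lines cannot be told apart from these either. The labels give the libraries of a group as duplicates of the induction, and the p-values rest on the spread of these duplicates, which may be technical.

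HCF-2, the product of HCFC2, is the smaller relative of HCF-1, a chromatin-associated cofactor that OGT cleaves to maturity and that brings histone-modifying enzymes to sequence-specific transcription factors. Several of the gene groups below answer within minutes to hours to outside signals. Immediate-early genes such as EGR1 and FOS are switched on by kinases through factors already in the cell, among them SRF. YAP and TAZ carry signals of cell shape and contact to TEAD factors at genes such as CTGF and CYR61. In the integrated stress response, kinases phosphorylate eIF2alpha, which lowers general translation and raises ATF4, and PPP1R15A encodes the phosphatase subunit that reverses it. SREBP factors set the transcription of sterol and fatty acid synthesis genes.

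The day 1 libraries held 22699111 and 23710518 expected counts in HCF-2 WT and 30736213 and 31006448 in HCF-2 Fn3nc*. More genes had a count in HCF-2 Fn3nc*, 31028 and 31080 against 26989 and 27113. The 10 most abundant genes took 7.4 to 7.45% of the counts in HCF-2 Fn3nc* and 10.5 to 11% in HCF-2 WT, and the non-coding 7SK and 7SL RNAs with their copies took 5.05 to 5.07% against 7.16 to 7.54%. The part of depth and composition in the results was not tested beyond a change of scaling. The HCF-2 Fn3nc* duplicates were the most alike of the 8 pairs, with a chi-square per gene of 2.4 against 7.11 for HCF-2 WT, and differed beyond sampling noise. HEK-293 markers were present in all 4 libraries. VIM stood at 898 and 909 CPM (counts scaled to library size with TMM factors) in HCF-2 WT and 588 and 555 CPM in HCF-2 Fn3nc*, while KRT8, KRT18 and NEFL ranged from 66.2 to 202 CPM. PAX2, at 0.511 to 0.835 CPM, NEFM, at 0.22 to 0.544 CPM, and LHX1, at 1.58 to 4.33 CPM, were low in these cells. Of the markers of other cell types, the 15 of blood cells summed to 3.65 to 6.17 CPM in HCF-2 WT and 13.4 to 14.3 CPM in HCF-2 Fn3nc*, with CD3E and HBB at 0 in all 4 libraries. The sums were 5.72 to 7.17 against 11.3 to 11.6 CPM for 10 fibroblast markers and 2.04 to 2.29 against 4.29 to 4.76 CPM for 8 endothelial markers. They were 0.771 to 1.06 against 5.3 to 5.48 CPM for 10 hepatocyte markers and 2.36 to 2.68 against 3.58 to 3.81 CPM for 11 squamous epithelium markers. Some members were near 0 throughout, with PTPRC, COL1A2, CDH5, AHSG and KRT14 at or below 0.132 CPM in every day 1 library. Others were higher in HCF-2 Fn3nc*, among them CD14, at 0.352 and 0.59 against 3.1 and 3.43 CPM, CD79A, at 0.044 and 0.136 against 2.4 and 2.12 CPM, and TF, at 0.396 and 0.136 against 4.22 and 4.07 CPM. PDGFRB, KDR and ALB were at 0 to 0.499 CPM in HCF-2 WT and 0.607 to 1.22 CPM in HCF-2 Fn3nc*. Some lay lower in HCF-2 Fn3nc*, among them KRT13, at 0.528 and 0.499 against 0.0958 and 0.128 CPM, SFN and ERG. In HCF-2 Fn3nc*, TF made most of the hepatocyte sum and COL1A1, at 6.64 and 6.92 CPM, most of the fibroblast sum. The part of these marker genes in the results was not tested.

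On day 1, 3539 of 18925 genes tested were higher in HCF-2 Fn3nc* (18.7%) and 2926 were lower (15.5%), at an adjusted p under 0.05 by the quasi-likelihood test of edgeR and a log2 fold change beyond 0.5. A gene that passed both is called higher or lower below, or said to have risen or fallen against HCF-2 WT. The shares of 18.7% and 15.5% are the background for every list count of day 1 below, and a list near them does not stand out. The higher genes went further: 1859 of them lay beyond a log2 difference of 1 against 745 of the lower ones, 672 against 83 lay beyond 2, and 306 against 30 lay beyond 3. The median difference was 1.05 among the higher and -0.77 among the lower genes, and 0 over all genes tested. The pairs of the 2 lines did not overlap in 14411 of the 18925 genes (76.1%), called or not. In bulk RNA, fewer cells of a type and less RNA per cell cannot be told apart. Calls were found at all levels, but higher genes were in excess only among low ones. Under a mean of 1 CPM 14.3% were higher and 2.57% lower, and from 1 to 5 CPM 27.8% and 14.4%. From 20 to 100 CPM the shares were 17.1% and 19.6%, and over 100 CPM 12.4% and 16.9%. Among the 12765 genes with FPKM above 1 in every library, the same calls gave 2227 higher and 2466 lower. Protein-coding genes were called about as often in both directions, 20.1% higher and 19.2% lower of 13200. Long non-coding RNAs were higher in 18.3% and lower in 7.11% of 2531 genes, with a median difference of 0.21.

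**Figure D1:**
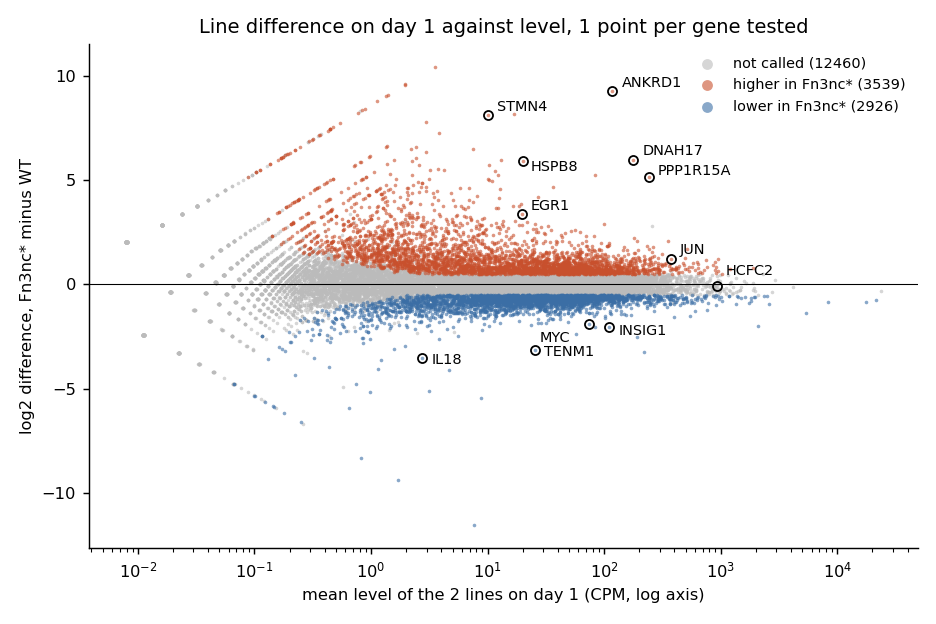
Difference between the lines on day 1 (log2, HCF-2 Fn3nc* minus HCF-2 WT) against the mean level of both lines (CPM, log axis), with 1 point for each of 18925 genes tested, 3539 called higher in red and 2926 called lower in blue. Beyond a difference of 3 lie 306 red and 30 blue points, and the diagonal streaks at the left and along the edges are genes with few or no counts in a line, whose fitted differences are not bounds.

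HCFC2 (GRCh37 chr12:104458309-104500302, plus strand, a protein-coding gene), which the transgene was built from, was at similar levels in both lines. Its level, which adds the endogenous and the tagged transcripts, was 963 and 917 CPM in HCF-2 WT and 893 and 908 CPM in HCF-2 Fn3nc*. The groups did not overlap, but the log2 difference of -0.06 (SE 0.06, edgeR adjusted p = 0.449) was not called. HCFC1, which encodes HCF-1, stood at 137 and 178 CPM in HCF-2 WT and 247 and 259 CPM in HCF-2 Fn3nc*, a log2 difference of 0.68 (SE 0.15, edgeR adjusted p = 0.00123) that was called higher. Without HCF-2 WT replicate 1 it was 0.47, and the call was lost. OGT, the glycosyltransferase that cleaves HCF-1, was at 293 and 279 CPM against 328 and 336 CPM, a difference of 0.21 that stayed under the fold threshold.

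Genes of the HCF-1 circle moved both ways. Of 28 HCF-1 partners, substrates and modifiers tested, 9 were higher and 4 lower, with a median of 0.04. THAP1, a zinc-finger factor that recruits HCF-1 and OGT, stood at 17.3 and 16.3 CPM in HCF-2 WT and 70.8 and 69.5 CPM in HCF-2 Fn3nc* (log2 2.06, SE 0.10). KMT2A, an HCF-1-associated histone H3 lysine 4 methyltransferase, rose from 175 and 208 CPM to 380 and 401 CPM (log2 1.03). MGEA5, the enzyme that removes the sugar OGT adds, was at 179 and 170 CPM against 345 and 352 CPM (log2 1.00). E2F1, a G1/S transcription factor that binds HCF-1, was lower, at 88.8 and 91.7 CPM against 40.1 and 44.6 CPM (log2 -1.09), as was the deubiquitinase BAP1 (log2 -0.57). In each of these genes the HCF-2 Fn3nc* pair lay wholly outside the HCF-2 WT pair, as it did in 76.1% of all genes tested.

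**Figure D2:**
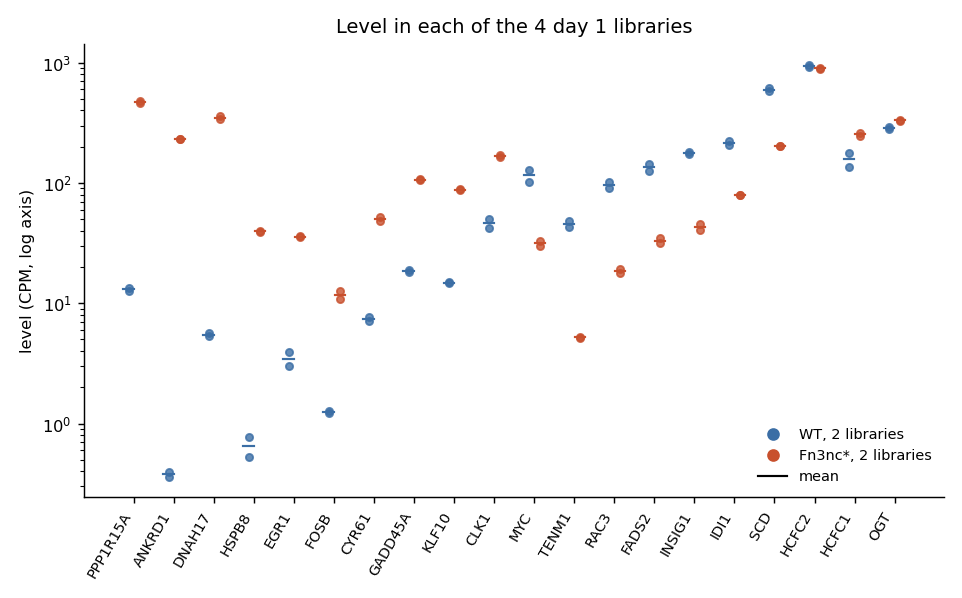
Level of 20 genes in each of the 4 day 1 libraries (CPM, log axis), HCF-2 WT in blue and HCF-2 Fn3nc* in red, with a dash at the mean of each pair. PPP1R15A to CLK1 lie higher in both HCF-2 Fn3nc* libraries and MYC to SCD lie lower, while the pairs of HCFC2 and OGT are close together.

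The largest rises were in genes that HCF-2 WT cells hardly expressed. ANKRD1, a YAP target first known as a cardiac stress protein, was at 0.396 and 0.363 CPM in HCF-2 WT and at 234 CPM in both HCF-2 Fn3nc* libraries, a log2 difference of 9.25 (SE 0.28, edgeR adjusted p = 7.15e-12). NPPB, which encodes the B-type natriuretic peptide of stretched heart muscle, had 0 counts in HCF-2 WT and 440 in HCF-2 Fn3nc*, where it stood at 6.77 and 7.31 CPM. Set against 3 counts over the HCF-2 WT pair, it was at least 105-fold higher. NPR3, the clearance receptor of natriuretic peptides, was at 0.0879 and 0.0907 CPM against 4.98 and 5.10 CPM (log2 5.74). These 3 genes were picked for a large difference and for pairs that did not overlap. Within each line their libraries were nearly equal.

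Further rises of this size were found in genes of unlike function. STMN4, a neuronal relative of the microtubule destabiliser stathmin, had 3 counts in HCF-2 WT and 1258 in HCF-2 Fn3nc*, a ratio of 300 (95% exact counting interval 103 to 1460), counting error only. LTA, the cytokine lymphotoxin alpha, had 1 count against 372, a ratio of 267 (47.5 to 10600). ZNF320, a KRAB zinc-finger gene of chromosome 19, had 2 counts against 480, a ratio of 172 (47.3 to 1420). For FAM209A and TCEAL7, 2 and 3 counts in HCF-2 WT stood against 302 and 363, and for CPNE7, a copine that binds membranes with calcium, 3 stood against 274. HSPB8, a small heat shock protein that helps to clear misfolded proteins, rose from 0.528 and 0.771 CPM to 39.2 and 40.2 CPM (log2 5.93, SE 0.17, edgeR adjusted p = 4.5e-12). CASS4, a scaffold protein of focal adhesions, rose from 0.528 and 0.272 CPM to 25.4 and 25.9 CPM (log2 5.98). In these genes the HCF-2 Fn3nc* libraries lay more than an order of magnitude above HCF-2 WT. Size and pairs that did not overlap were conditions of the choice, so neither is a separate result.

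DNAH17 (GRCh37 chr17:76419778-76573478, minus strand, protein-coding), a heavy chain of the outer arm dynein that moves sperm flagella, was at 5.32 and 5.67 CPM in HCF-2 WT and 337 and 359 CPM in HCF-2 Fn3nc* (log2 5.98, SE 0.14, edgeR adjusted p = 3.9e-13). DNAH17-AS1 (log2 6.51) is annotated as its antisense gene, and the sources used here do not say whether the counting used strand, so reads of the 2 cannot be told apart. Other axonemal dynein heavy chain genes were then looked at, after their values were seen. DNAH12 (log2 5.51), DNAH3 (4.63), DNAH7 (2.82), DNAH6 (2.79) and DNAH10 (2.58) were higher and DNAH11 (-1.23) was lower. A gene had to reach an FPKM above 1 in 1 library only to be tested, so members that are low in HCF-2 WT entered through the libraries where they are high. With FPKM above 1 in every library, 2 genes of the family remained, 1 higher and 1 lower, so no count over the family is read here. The processed pseudogene XRCC6P1 (log2 8.16) and the read-through gene RAB4B-EGLN2, which had 2 counts against 275, complete the 15 largest rises. Reads of both can be shared with their parent genes, which makes their values uncertain.

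Most immediate-early genes were higher. Of 31 members tested, 18 were higher and 1 lower on day 1, with a median difference of 0.63 against 0 over all genes. EGR1, a zinc-finger factor, stood at 2.99 and 3.90 CPM in HCF-2 WT and 36.1 and 35.5 CPM in HCF-2 Fn3nc* (log2 3.38, SE 0.19, edgeR adjusted p = 2.26e-09). ZFP36, which binds AU-rich elements and shortens the life of cytokine mRNAs, was at 1.27 and 2.45 CPM against 16.8 and 16.7 CPM (log2 3.17). CSRNP1, a nuclear factor induced by AXIN1, was at 4.79 and 5.99 CPM against 27.0 and 28.4 CPM (log2 2.36). IER2 (log2 1.34), the orphan nuclear receptor gene NR4A3 (1.23) and the clock genes PER1 (1.37) and PER2 (1.40) were also higher. In each of these genes both HCF-2 Fn3nc* libraries exceeded both HCF-2 WT libraries. Pairs without overlap, in either direction, were found in 76.1% of all genes tested. SRF itself, at 63.5 and 69.8 CPM against 62.3 and 62.6 CPM, was not called. The exception among the 31 was MYC, the growth-promoting transcription factor, which fell from 102 and 129 CPM to 33.1 and 30.1 CPM (log2 -1.87, SE 0.10, edgeR adjusted p = 1.59e-09).

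The promoter of EGR1 is shown because this gene led the group and its upstream sequence carries the element through which SRF acts. The 250 bases before and the 50 from the start site (RefSeq, GRCh38.p14, chr5:138465229-138465528, plus strand) read as follows, with CArG boxes, the SRF motif, in capitals.
EGR1: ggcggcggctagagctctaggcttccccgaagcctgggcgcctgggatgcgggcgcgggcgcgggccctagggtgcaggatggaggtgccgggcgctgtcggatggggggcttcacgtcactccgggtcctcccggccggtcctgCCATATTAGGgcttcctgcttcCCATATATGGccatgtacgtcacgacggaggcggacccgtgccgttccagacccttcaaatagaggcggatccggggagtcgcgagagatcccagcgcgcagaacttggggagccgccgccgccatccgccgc
The 2 boxes start 105 and 83 bases before the start site. A CArG box on either strand was present in 1.29% of the 27305 promoters of the RefSeq table, in 1.03% of the 11583 promoters of genes tested, in 1.17% of 2308 promoters of higher genes and in 1.05% of 2100 promoters of lower genes. It was present in 3 of 24 promoters of immediate-early genes and in 6 of 26 of the SRF-driven cytoskeleton genes. A match is a description of the sequence and not a measured site.

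AP-1 and ATF3 factors, the leucine-zipper proteins that dimerise on AP-1 sites, gave 11 higher and 1 lower of 17 members, with a median of 0.82. With FPKM above 1 in every library, 7 of 12 were higher. FOSB was at 1.27 and 1.23 CPM in HCF-2 WT and 10.8 and 12.7 CPM in HCF-2 Fn3nc* (log2 3.23, SE 0.20). FOS was at 3.08 and 2.63 CPM against 16.6 and 14.8 CPM (log2 2.46), and MAFF, a small Maf protein, at 1.19 and 0.953 CPM against 7.73 and 8.53 CPM (log2 2.92). ATF3, a stress-induced repressor of the family, rose from 31.8 and 29.8 CPM to 96.0 and 91.4 CPM (log2 1.61). JUN, the usual partner of FOS, rose from 218 and 235 CPM to 526 and 514 CPM (log2 1.2). JUND, at 50.7 and 54.4 CPM against 46.7 and 40.6 CPM, was not called, and BATF3 was lower (log2 -0.65). The AP-1 motif TGANTCA, searched on both strands, was present in 5.89% of promoters of higher genes, 3.86% of those of lower genes, 4.47% of those of genes tested and 7.76% of all.

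Kruppel-like factors were mixed, with 4 higher (33.3%) and 2 lower (16.7%) of 12, beside 18.7% and 15.5% of all genes. KLF10, a TGF-beta-inducible repressor, rose from 14.7 and 15 CPM to 89.8 and 86.5 CPM (log2 2.57), followed by KLF6 (1.33) and KLF5 (1.09). Genes of ERK feedback and ETS factors gave 8 higher (33.3%) and 6 lower (25%) of 24. The phosphatase genes DUSP8 (log2 2.54) and DUSP1 (1.43), whose products switch off MAP kinases, were higher. ETV4 (log2 -1.40), an ETS factor that ERK signalling raises, and CCND1 (-1.12), the G1 cyclin, were lower. In this list the members that rose and those that fell both include known ERK targets.

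PPP1R15A, also called GADD34, had the largest difference of the 38 integrated stress response genes tested. It is shown here for the sequence before its start site, which holds a CRE, the element TGACGTCA that ATF and CREB factors bind. The promoter lies at chr19:48872171-48872470 of GRCh38.p14, plus strand (RefSeq), and the CRE, in capitals, starts 58 bases before the start site.
PPP1R15A: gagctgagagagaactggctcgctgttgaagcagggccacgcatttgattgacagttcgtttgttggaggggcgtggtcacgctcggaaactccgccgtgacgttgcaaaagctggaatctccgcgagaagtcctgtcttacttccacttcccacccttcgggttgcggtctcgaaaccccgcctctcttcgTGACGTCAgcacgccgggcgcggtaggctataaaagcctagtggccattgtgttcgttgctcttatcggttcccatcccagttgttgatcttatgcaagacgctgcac
A CRE was present on either strand in 4.9% of promoters of higher genes, 1.95% of those of lower genes, 3.27% of the 11583 promoters of genes tested and 1.98% of all. In the integrated stress response list it was present in 1 of 30 promoters (3.33%). The counts of both PPP1R15A pairs were far apart, with 13.4 and 12.7 CPM in HCF-2 WT and 457 and 481 CPM in HCF-2 Fn3nc*.

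The rest of the integrated stress response moved both ways, with more genes lower than higher. Of the 38 genes, 7 were higher (18.4%, as among all genes) and 15 lower (39.5%), and the median was -0.31. ATF4, its main transcription factor, rose from 586 and 591 CPM to 1110 and 1130 CPM (log2 0.93), and DDIT3, the pro-apoptotic factor CHOP, from 12.4 and 10.8 CPM to 37.0 and 36.4 CPM (log2 1.66, SE 0.09). SLC3A2, the heavy chain of amino acid exchangers, was higher as well (log2 1.79). Among ATF4 targets, CBS, which makes cystathionine, fell from 116 and 129 CPM to 45.1 and 47.9 CPM (log2 -1.40). SLC7A11, the cystine transporter, fell from 70.7 and 71.6 CPM to 27.6 and 27.3 CPM (log2 -1.37), and TRIB3, a pseudokinase that restrains ATF4, was lower too (-0.73). CHAC1, which degrades glutathione and is a textbook ATF4 target, was at 3.03 and 3.63 CPM against 2.91 and 2.88 CPM and was not called (log2 -0.20).

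Unfolded protein response genes gave 1 higher and 9 lower of 35, with a median of -0.30, and 14 lower without an FPKM filter. The chaperone HSPA5, at 128 and 170 CPM against 166 and 176 CPM, was not called and its pairs overlapped. PDIA4, a disulfide isomerase of the endoplasmic reticulum, fell from 312 and 321 CPM to 145 CPM in both HCF-2 Fn3nc* libraries (log2 -1.13), and SDF2L1, a co-chaperone there, was lower by a similar size (-1.17). DERL2, which moves misfolded proteins out of that compartment, was the higher member (log2 1.17). Heat shock factor targets gave 7 higher (24.1%) and 8 lower (27.6%) of 29, with HSPB8 far above the rest. HSPE1, the mitochondrial co-chaperonin, fell from 143 and 128 CPM to 71.0 and 68.9 CPM (log2 -0.96), and HSPA8, the constitutive HSP70, was lower (-0.65). HSPA1B was lower (log2 -0.80) and HSPA1A was not called (-0.20), but their near-identical sequences share reads, so their split is uncertain.

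GADD45A, a growth arrest protein, stood at 18.9 and 18.3 CPM in HCF-2 WT and 107 and 105 CPM in HCF-2 Fn3nc* (log2 2.51, SE 0.09). AEN, a nuclease of apoptosis, rose from 149 CPM in both libraries to 381 and 386 CPM (log2 1.37). CDKN1A, the CDK inhibitor p21, rose from 45.6 and 48.8 CPM to 109 CPM in both (log2 1.21), and the death receptor gene TNFRSF10B from 121 and 125 CPM to 313 and 312 CPM (log2 1.34). MDM2, a ubiquitin ligase, was at 485 and 460 CPM against 538 and 536 CPM and was not called (log2 0.19). FDXR, a mitochondrial electron donor, was lower (log2 -0.99). In each of the higher genes named here, both HCF-2 Fn3nc* libraries exceeded both HCF-2 WT libraries. Of all genes tested, 76.1% had pairs without overlap in either direction. The BCL2 family gave 2 higher and 4 lower of 18, with 1 higher without HCF-2 WT replicate 1 and without either HCF-2 Fn3nc* library.

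**Figure D3:**
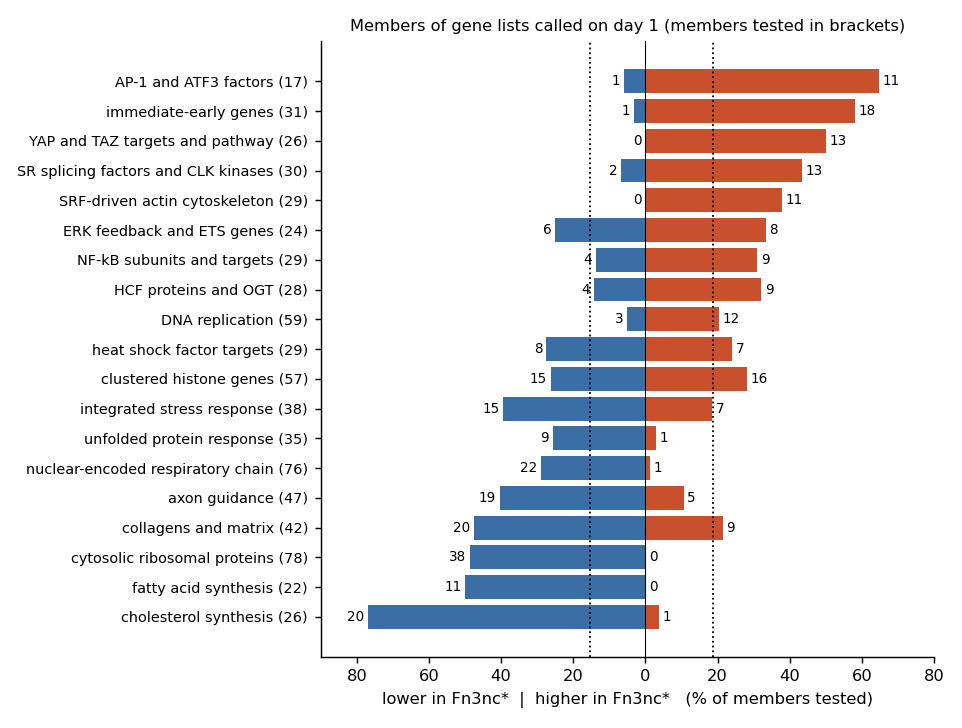
Share of the tested members of 19 gene lists called higher (red, to the right) or lower (blue, to the left) in HCF-2 Fn3nc* on day 1, in percent of members tested, with the count at each bar and dotted lines at the shares over all genes, 18.7% higher and 15.5% lower. AP-1 factors and immediate-early genes stand at the top with 11 of 17 and 18 of 31 higher, and cholesterol synthesis stands at the bottom with 20 of 26 lower.

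YAP and TAZ targets were higher in 13 and lower in 0 of 26 genes by edgeR, with a median of 0.45. With FPKM above 1 in every library, 7 of 20 were higher and the median was 0.10. At an unadjusted p under 0.05, 5 had a negative difference, and DESeq2 called 0 lower. The nearest to a call was TEAD2 (log2 -0.48), which was called lower without HCF-2 WT replicate 1 (-0.73) and without HCF-2 Fn3nc* replicate 1 (-0.56). Next to ANKRD1, the matricellular proteins CYR61 and CTGF rose, CYR61 from 7.08 and 7.62 CPM to 48.2 and 52.0 CPM (log2 2.77, SE 0.12) and CTGF from 3.47 and 2.81 CPM to 22 and 19.8 CPM (log2 2.73, SE 0.18). AMOTL2, an angiomotin that binds YAP, rose from 13.3 and 14.7 CPM to 78.0 CPM in both (log2 2.48). DKK1, a secreted inhibitor of WNT signalling, was higher at a low level (log2 2.87), as was THBS1, thrombospondin 1 (2.50). YAP1 itself, at 81.0 and 83.5 CPM against 76.1 and 71.4 CPM, WWTR1, which encodes TAZ, and TEAD1, TEAD3 and TEAD4 were not called.

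The promoters of ANKRD1 and CTGF are shown because both hold more than 1 copy of GGAATG, the core that TEAD factors bind. They lie on the minus strand at chr10:90921038-90921337 and chr6:131951323-131951622 of GRCh38.p14 (RefSeq, where CTGF is named CCN2) and are written 5′ to 3′ towards the gene, with the GGAATG cores in capitals.
ANKRD1: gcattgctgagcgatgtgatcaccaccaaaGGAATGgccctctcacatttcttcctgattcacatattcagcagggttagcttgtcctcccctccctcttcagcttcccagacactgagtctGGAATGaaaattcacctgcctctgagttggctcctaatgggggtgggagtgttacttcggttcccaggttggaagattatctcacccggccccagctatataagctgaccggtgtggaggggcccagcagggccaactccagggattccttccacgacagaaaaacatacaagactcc
CTGF: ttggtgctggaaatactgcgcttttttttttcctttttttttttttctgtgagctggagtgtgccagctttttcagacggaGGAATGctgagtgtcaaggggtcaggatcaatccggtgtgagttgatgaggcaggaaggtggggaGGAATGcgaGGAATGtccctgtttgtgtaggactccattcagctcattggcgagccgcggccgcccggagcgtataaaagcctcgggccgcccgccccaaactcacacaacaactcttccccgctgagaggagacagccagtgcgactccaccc
The cores of ANKRD1 start 220 and 128 bases before the start site, and those of CTGF 169, 104 and 95 bases before it. The core was present on either strand in 9 of 20 promoters of the YAP and TAZ list (45.0%), in 12% of promoters of higher genes, in 10.0% of those of lower genes, in 10.7% of those of genes tested and in 14% of all.

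SRF-driven genes of the actin cytoskeleton gave 11 higher and, by edgeR, 0 lower of 29, with a median of 0.40, or 0.23 over the 27 with FPKM above 1 in every library. Without an FPKM filter, 2 were lower. At an unadjusted p under 0.05, 4 had a negative difference, and DESeq2 called 0 lower. Without HCF-2 WT replicate 1 the list gave 7 higher and 3 lower, among the latter the actin-severing cofilin CFL1 (log2 -0.48 with all libraries, -0.53 without it) and the alpha-actinin ACTN1 (-0.48 and -0.60), and ACTN1 was also called without HCF-2 Fn3nc* replicate 2 (-0.52). ACTA2, smooth muscle actin, rose from 7.78 and 9.89 CPM to 39.3 and 39.0 CPM (log2 2.15, SE 0.12). TUFT1, first described in tooth enamel, rose from 28.6 and 25.4 CPM to 137 and 134 CPM (log2 2.32), and ZYX, zyxin of focal adhesions, from 25.6 and 37.3 CPM to 83.1 and 90.0 CPM (log2 1.46). The abundant actins ACTB and ACTG1 were not called, each with a difference of 0.06.

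NF-kB subunits, regulators and targets gave 9 higher and 4 lower of 29, with a median of 0.03, and with FPKM above 1 in every library 1 of 16 was lower and the median was 0.24. LIF, an IL-6 family cytokine, was at 2.46 and 2.99 CPM against 21.8 and 19.6 CPM (log2 2.92), RELB, a subunit of the alternative pathway, at 1.36 and 1.72 CPM against 5.88 and 6.67 CPM (2.02), and TNFAIP3, the inhibitor A20, at 7.34 and 7.39 CPM against 28.1 and 28.5 CPM (1.94). The chemokine IL8 went the other way from 1.10 and 1.45 CPM to 0.543 and 0.385 CPM (log2 -1.45), a call that was lost without HCF-2 WT replicate 2 (log2 -1.26, edgeR adjusted p = 0.0677) and without HCF-2 Fn3nc* replicate 2 (-1.22, adjusted p = 0.0629). The number of lower members was 2 without HCF-2 WT replicate 2 or without HCF-2 Fn3nc* replicate 1. Interferon response genes gave 5 higher (20%) and 3 lower (12%) of 25, near the shares over all genes. The lower ones were 5 without HCF-2 WT replicate 1 and 6 without an FPKM filter, and with FPKM above 1 in every library 2 of 18 were higher. ISG20, an exonuclease (log2 3.29), and ISG15, a ubiquitin-like modifier (2.72), rose, while IFIT1, which binds viral RNA caps, fell from 6.02 and 5.26 CPM to 2.14 and 1.86 CPM (log2 -1.5).

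Splicing kinases and SR proteins were higher in 13 and lower in 2 of 30 genes, with a median of 0.38. RSRC2, an arginine and serine-rich protein, rose from 144 and 129 CPM to 564 and 578 CPM (log2 2.06, SE 0.09). CLK1, a kinase of SR proteins, rose from 49.95 and 42.2 CPM to 164 and 170 CPM (log2 1.86), followed by CLK4 (1.45) and the matrix protein gene SRRM1 (1.2). SRSF1, the founding SR protein, was at 746 and 686 CPM against 703 and 701 CPM and was not called. SRSF9 was lower (log2 -0.61). Gene-level counts do not show which splice forms of these genes were present. Of 20 snoRNA host genes, 7 were higher (35%) and 4 lower (20%).

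The lists of growth and division are given beside the shares over all genes, 18.7% higher and 15.5% lower. DNA replication gave 12 higher (20.3%) and 3 lower (5.08%) of 59, with a median of 0.16, and 5 lower without HCF-2 WT replicate 1. CDT1, which loads the replicative helicase, rose from 66.0 and 73.7 CPM to 222 and 218 CPM (log2 1.66), and ORC1 of the origin recognition complex was higher (1.05). Mitosis genes gave 14 higher (22.2%) and 4 lower (6.35%) of 63, with CDC25A, a phosphatase that activates CDKs, higher (log2 1.13) and CCNB1, cyclin B1, lower (-0.62). Of 29 cyclins, CDK inhibitors and RB pathway genes, 10 were higher and 5 lower. E2F8, an atypical repressor E2F, rose from 10.2 and 9.84 CPM to 60.7 and 59.8 CPM (log2 2.59) while E2F1 fell. Ribosome biogenesis factors gave 15 higher (16.5%) and 9 lower (9.89%) of 91, among them RRN3, an initiation factor of RNA polymerase I, which was higher (log2 1.13).

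Sterol synthesis was the list with the largest share of lower genes. Of 26 genes of cholesterol synthesis and its control, 20 were lower and 1, the mevalonate pathway kinase PMVK (log2 0.51), was higher, with a median of -0.86. The call of PMVK was lost without HCF-2 WT replicate 1 (log2 0.40) and without HCF-2 Fn3nc* replicate 2 (0.43). INSIG1 (GRCh37 chr7:155089486-155101945, plus strand, protein-coding), which holds the SREBP complex in the endoplasmic reticulum and is itself an SREBP target, fell from 174 and 181 CPM to 45.6 and 40.4 CPM (log2 -2.04, SE 0.10, edgeR adjusted p = 7.02e-10). SQLE, squalene epoxidase, fell from 200 and 203 CPM to 77.6 and 73.8 CPM (log2 -1.41), IDI1, isopentenyl diphosphate isomerase, from 221 and 208 CPM to 79.8 and 79.5 CPM (-1.43), and MSMO1, sterol C4-methyl oxidase, from 82.0 and 74.6 CPM to 31.1 and 27.5 CPM (-1.42). SREBF2, the factor gene itself, was at 71.0 and 88.5 CPM against 72.0 and 74 CPM, with overlapping pairs and no call. Except for SREBF2, both HCF-2 Fn3nc* libraries lay below both HCF-2 WT libraries in every gene of this paragraph but PMVK. Pairs without overlap, in either direction, made up 76.1% of all genes tested.

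The promoter of MSMO1 is given as an example of this list, since NF-Y, which binds CCAAT boxes, acts together with SREBP factors. It lies at chr4:165327419-165327718 of GRCh38.p14, plus strand (RefSeq), with CCAAT on either strand in capitals.
MSMO1: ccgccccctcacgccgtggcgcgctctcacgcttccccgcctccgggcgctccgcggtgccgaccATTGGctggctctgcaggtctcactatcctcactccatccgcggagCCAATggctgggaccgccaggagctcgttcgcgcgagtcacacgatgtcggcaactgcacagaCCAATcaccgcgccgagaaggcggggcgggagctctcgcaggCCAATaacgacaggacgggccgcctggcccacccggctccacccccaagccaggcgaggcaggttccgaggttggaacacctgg
The 4 boxes start 185, 139, 76 and 34 bases before the start site. CCAAT was present on either strand in 15 of 20 promoters of the cholesterol list (75.0%), in 36.0% of promoters of lower genes, in 38.4% of those of higher genes, in 36.7% of those of genes tested and in 35.7% of all. The sterol regulatory element that SREBP factors bind, searched as TCACNCCAC on either strand, was present in 1 of 20 promoters of the cholesterol list, in 0 of 20 of the fatty acid list and in 1.13% of those of genes tested.

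Fatty acid synthesis followed, with 11 lower and, by edgeR, 0 higher of 22, and a median of -0.47. With FPKM above 1 in every library, 7 of 20 were lower. At an unadjusted p under 0.05, 1 had a positive difference, ELOVL4, which elongates very long chains (log2 0.29), and DESeq2 called 0 higher. FADS2, the delta-6 desaturase, fell from 125 and 145 CPM to 34.9 and 31.5 CPM (log2 -2.02, SE 0.09), SCD, the delta-9 desaturase, from 576 and 613 CPM to 202 and 204 CPM (-1.55), and FASN, fatty acid synthase, from 695 and 925 CPM to 266 and 302 CPM (-1.51). ACACA, acetyl-CoA carboxylase, was not called (log2 0.06). Hypoxia and glycolysis genes were lower in 10 (28.6%) and higher in 6 (17.1%) of 35, the latter near the 18.7% of all genes. KDM3A, a histone demethylase, was among the higher ones (log2 1.70) and PGK1, a glycolytic kinase, among the lower ones (-0.82). NRF2 target genes were lower in 10 (40%) and higher in 5 (20%) of 25, and with FPKM above 1 in every library 3 of 22 were higher. ABCC2, an export pump, was the highest (log2 3.08). Lysosome and autophagy genes were higher in 14 (36.8%) and lower in 8 (21.1%) of 38, among them MAP1LC3B, the autophagosome protein LC3B, which was higher (log2 1.58).

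Of 76 nuclear-encoded respiratory chain genes, 22 were lower and 1, SDHA (log2 0.73), was higher, with a median of -0.34, while 53 were not called. ATP5G1, a subunit of the ATP synthase ring, fell from 59.8 and 60.2 CPM to 28.5 and 28.4 CPM (log2 -1.08). Of 78 cytosolic ribosomal protein genes, 38 were lower and, by edgeR, 0 higher, with a median of -0.50, while 40 were not called. At an unadjusted p under 0.05, 3 had a positive difference, RPL26 (log2 0.32), RPL37 (0.30) and RPL10A (0.26), and DESeq2 called 0 higher. RPS21 fell from 229 and 218 CPM to 81.8 and 80.7 CPM (log2 -1.46). Mitochondrial ribosomal protein genes gave 18 lower and 5 higher of 76, and 53 were not called. Of 13 mitochondrially encoded mRNAs, 5 were lower and 0 higher by edgeR, with 0 higher at an unadjusted p under 0.05 and 0 by DESeq2. The number of lower ones was 11 without an FPKM filter, 3 by DESeq2, and 2 by edgeR without HCF-2 WT replicate 2 or without either HCF-2 Fn3nc* library. MT-ND3, of complex I, fell from 146 and 177 CPM to 63.8 and 59.6 CPM (log2 -1.38). The share of all counts from mitochondrial transcripts was 0.495 and 0.612% in HCF-2 WT and 0.424 and 0.44% in HCF-2 Fn3nc*.

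The day 1 median of protein-coding genes was lowest in the shortest length class. Among 166 protein-coding genes with an effective length under 0.5 kb and a mean of at least 5 CPM, 39.8% were lower and 0.602% higher, with a median of -0.41, against -0.09 on day 6. From 0.5 to 1 kb the day 1 median was -0.25, from 1 to 2 kb -0.09, and over 4 kb -0.04. Within RNA-seq, length also sets how fragments are made and counted, and its part in the values of respiratory chain and ribosomal protein genes was not tested.

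Collagens and matrix genes were lower in 20 and higher in 9 of 42, with a median of -0.48, and with FPKM above 1 in every library 2 of 30 were higher. COL5A1, a fibrillar collagen, fell from 15.9 and 19.4 CPM to 5.88 and 6.44 CPM (log2 -1.52), while COL12A1, a fibril-associated collagen, rose from 2.15 and 2.40 CPM to 31.4 and 30.7 CPM (log2 3.77, SE 0.16). Axon guidance genes were lower in 19 and higher in 5 of 47, with a median of -0.38, and 3 were higher without HCF-2 WT replicate 1 or without HCF-2 Fn3nc* replicate 2. SEMA3D, a secreted semaphorin, fell from 19.9 and 18.6 CPM to 7.73 and 6.44 CPM (log2 -1.44), and SEMA4D, a membrane semaphorin, was higher (1.39). Kidney development genes were lower in 10 and higher in 4 of 27 (2 of 20 with FPKM above 1 in every library), and their summed level was 715 and 724 CPM in HCF-2 WT and 492 and 490 CPM in HCF-2 Fn3nc*. LGR5, a WNT pathway receptor, fell from 75.1 and 77.7 CPM to 29.2 CPM in both (log2 -1.39), and the ureteric bud signals WNT11 (1.63) and GDNF (1.48) were higher at levels of 2.15 to 10.7 CPM.

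Notch pathway genes were lower in 8 and higher in 4 of 24, or in 5 and 1 of 15 with FPKM above 1 in every library, with NOTCH3 (log2 -1.32) and its ligand gene JAG2 (-1.24) lower. Glypicans, syndecans and the IGF axis gave 8 lower (40%) and 1 higher (5%) of 20. TGF-beta, BMP and ID genes gave 10 higher (25.6%) and 7 lower (17.9%) of 39. Retinoic acid genes gave 6 lower (35.3%) and 2 higher (11.8%) of 17. Of 25 genes of neuronal excitability, 7 were higher (28%) and 7 lower (28%). With FPKM above 1 in every library, 2 of 13 were higher. SCN9A, a voltage-gated sodium channel, fell from 28.1 and 28.9 CPM to 8.59 and 8.46 CPM (log2 -1.74), and KCND2, a voltage-gated potassium channel, rose from 0.0879 and 0.0907 CPM to 2.59 and 2.05 CPM (log2 4.62). TUBB3, the neuronal beta-tubulin, rose from 8.49 and 8.94 CPM to 39.8 and 42.1 CPM (log2 2.23).

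The largest falls were smaller than the largest rises. TENM1 (GRCh37 chrX:123509753-124338161, minus strand, protein-coding), a teneurin of the neuronal surface, fell from 43.4 and 48.3 CPM to 5.18 and 5.22 CPM (log2 -3.14, SE 0.09, edgeR adjusted p = 4.9e-12). IL18, an inflammasome cytokine, fell from 5.54 and 4.54 CPM to 0.511 and 0.353 CPM (log2 -3.53). RAC3, a small GTPase of cell shape, fell from 90.1 and 102 CPM to 17.7 and 19.3 CPM (log2 -2.37). HLA-DOA, an MHC class II chaperone (log2 -2.64), CACNA1H, a T-type calcium channel (-2.20), ALDH1A3, which makes retinoic acid (-2.13), NTS, the peptide neurotensin (-2.04), CDHR1, a photoreceptor cadherin (-2.01), and ACTL8, an actin-like protein (-2.23), were also among the 15. SLIT1, a ligand of ROBO receptors, was at 2.15 and 7.44 CPM against 1.53 and 0.865 CPM (log2 -1.99, edgeR adjusted p = 0.0107). Its pairs did not overlap, but the call was lost without HCF-2 WT replicate 2 (log2 -0.87, adjusted p = 0.326) and without HCF-2 Fn3nc* replicate 2 (log2 -1.64, adjusted p = 0.0896). The pseudogene PKD1P5 (log2 -4.09) shares its sequence with PKD1 and other copies and is uncertain.

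Some small structural RNAs and histone genes differed as well, with the reservation that many have near-identical copies among which reads are divided. Of 493 genes annotated as neither protein-coding, long non-coding nor pseudogene, snoRNAs among them, 3.04% were higher and 5.48% lower. The U3 snoRNA genes SNORD3B-1 (log2 -3.24), SNORD3B-2 (-2.51) and SNORD3A (-1.98) were lower. SNORD3A was at 3983 and 2613 CPM in HCF-2 WT and 967 and 704 CPM in HCF-2 Fn3nc*. SNORD3D was called lower at a log2 difference of -0.54, which became -0.42 without HCF-2 WT replicate 1 and -0.41 without HCF-2 Fn3nc* replicate 1, under the threshold. Of 57 clustered histone genes, 16 were higher (28.1%) and 15 lower (26.3%), with a median of 0.08. With FPKM above 1 in every library, 10 of 48 were higher and the median was -0.19. The linker histone gene HIST1H1C fell from 1110 and 1040 CPM to 457 and 449 CPM (log2 -1.24), and HIST1H1D was lower by a similar amount (-1.38). HIST1H3F had 1 count in HCF-2 WT against 169 in HCF-2 Fn3nc*. Most histone and U3 transcripts carry no poly(A) tail, so these libraries hold a part of them only.

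Zinc-finger genes were looked at after ZNF320 had been seen. Of 486 genes with ZNF symbols, 206 were higher (42.4%, beside 18.7% of all genes) and 36 lower, with a median of 0.37. Over those with FPKM above 1 in every library, an alternative added after seeing the data, 177 of 431 were higher (41.1%, beside 17.4% of all genes so selected). On chromosome 19, where most KRAB zinc-finger genes are clustered, 130 of 229 were higher (56.8%) and 2 lower, with a median of 0.63 on day 1 and 0.46, 0.47 and 0.52 on days 2, 4 and 6. The other 1043 genes of that chromosome had 241 higher and 107 lower, with a median of 0.18. Medians by chromosome, again looked at afterwards, were taken over genes with a mean of at least 5 CPM. On chromosome 13 the medians of days 1, 2, 4 and 6 were 0.38, 0.42, 0.33 and 0.34, and on day 1, 87 of 207 genes were higher and 16 lower. On chromosome 20 they were -0.32, -0.34, -0.23 and -0.31, and on day 1, 106 of 305 genes were lower and 33 higher. HEK-293 lines carry an altered set of chromosomes, and copy number was not measured here.

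**Figure D4:**
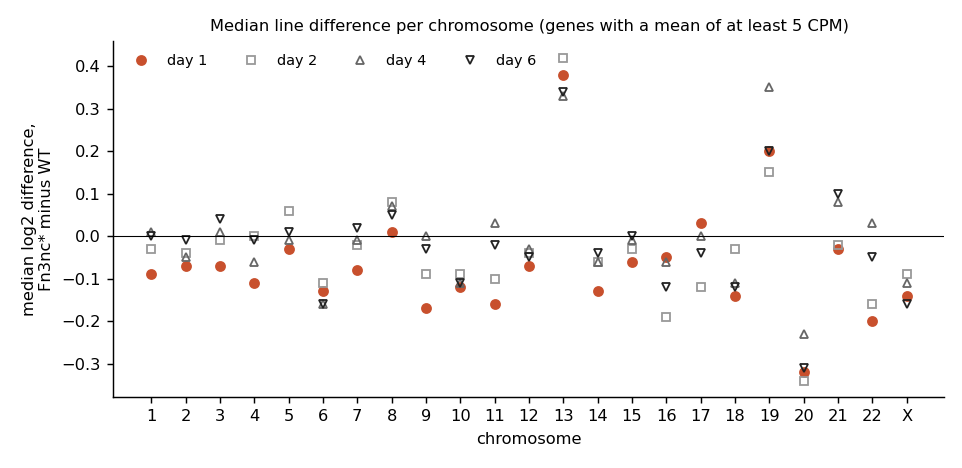
Median log2 difference between the lines (HCF-2 Fn3nc* minus HCF-2 WT) per chromosome, over genes with a mean of at least 5 CPM, with filled circles for day 1 and open symbols for days 2, 4 and 6. Chromosome 13 lies at 0.33 to 0.42 and chromosome 20 at -0.34 to -0.23 on all 4 days.

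The same lines were then compared on the later days, each day with its own 4 libraries. On day 2, 1719 genes were higher (9.08%) and 1432 lower (7.57%), on day 4, 1902 (10.1%) and 2291 (12.1%), and on day 6, 2501 (13.2%) and 3183 (16.8%). Of the 3539 genes higher on day 1, 1405 were also higher on day 2, 949 on day 4 and 1037 on day 6, while 303 were lower on day 6. Of the 2926 lower on day 1, 1082, 1197 and 1401 were also lower on days 2, 4 and 6, and 85 were higher on day 6. On all 4 days 512 genes were higher and 628 lower.

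Whether a day 1 difference departs from that of the later days was tested by the contrast of day 1 with the mean difference of days 2, 4 and 6. It was above the later days in 2449 genes (12.9%) and below in 1357 (7.17%) by edgeR, with the same thresholds. Of the genes higher on day 1, 1792 (50.6%) were above the later days, and of those lower on day 1, 809 (27.6%) were below. These genes were chosen by the day 1 difference, which is also part of the contrast. The choice alone raises both shares, so they are not read against the shares over all genes. The contrast was 4.49 (SE 0.57) for ANKRD1, 4.10 (SE 0.16) for DNAH17, 3.77 (SE 0.11) for PPP1R15A, 3.72 for HSPB8, 3.36 for EGR1 and 2.49 for GADD45A. PPP1R15A means in HCF-2 Fn3nc* were 469 ± 16.4, 173 ± 19.3, 38.3 ± 1.63 and 27.0 ± 1.08 CPM (SD, n = 2) on days 1, 2, 4 and 6. In HCF-2 WT they were 13.1 ± 0.565, 13.1 ± 0.426, 28.2 ± 1.33 and 26.7 ± 2.54 CPM. Its levels in the lines thus met by day 6, those of EGR1 crossed after day 2, and ANKRD1 stayed higher in HCF-2 Fn3nc* on every day, with differences of 7.0, 4.18 and 3.10.

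**Figure D5:**
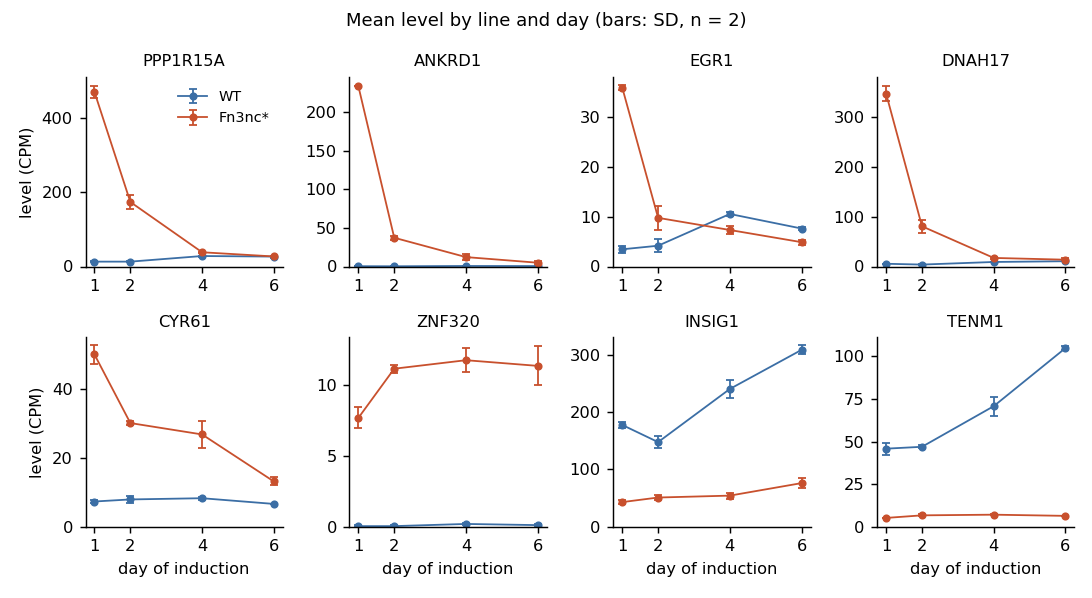
Mean level (CPM, bars SD, n = 2) of 8 genes by day of induction in HCF-2 WT (blue) and HCF-2 Fn3nc* (red). PPP1R15A, ANKRD1, EGR1 and DNAH17 are highest in HCF-2 Fn3nc* on day 1 and fall to day 6, whereas ZNF320, INSIG1 and TENM1 keep the lines apart on all 4 days.

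The 10 largest contrasts above the later days were those of LTA, XRCC6P1, FAM209A, SOGA3, STMN4, the sarcomere gene MYPN, TCEAL7, the guanylate-binding protein GBP2, NPR3 and SBSN. SOGA3, listed under a pair of Ensembl genes of which ENSG00000255330 is meant here, rose from 0.396 and 0.635 CPM to 26.2 and 18.9 CPM on day 1 (log2 5.44) and was called neither way on days 2, 4 and 6. The other SOGA3 entry had a smaller day 1 difference (log2 1.93), and how reads were divided between the entries was not tested. Below the later days, the 10 largest were 4 U3 genes, ACTL8, SLIT1, the minor spliceosome RNA RNU12, IFIT1, HIST1H3A and FLJ27365. By list, 20 of 31 immediate-early genes and 12 of 17 AP-1 and ATF3 factors were above the later days, beside 12.9% of all genes. So were 16 of 29 NF-kB and 12 of 26 YAP and TAZ genes. The NF-kB medians were 0.03, 0, -0.87 and -1.14 on days 1, 2, 4 and 6. On day 6, 19 NF-kB genes were lower and 1 higher, so their contrasts do not stand for a rise on day 1. The YAP and TAZ medians were 0.45, 0.13, 0.04 and -0.19. The medians of the immediate-early genes were 0.63, 0.13, -0.16 and -0.40 on days 1, 2, 4 and 6. The medians of cholesterol synthesis were -0.86, -0.65, -0.42 and -0.35, with 20 of 26 genes lower on day 1 and 9 lower and 1 higher on day 6, and 6 were below the later days. Respiratory chain genes had 15 of 76 below the later days, where their medians were -0.08, -0.05 and 0.05. Over all genes tested, 7.17% were below the later days.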

How the data were processed

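The 16 poly(A) RNA-seq libraries were made from RNA extracted in a single session and sequenced single-end. Per the paper's methods and the labels, the authors aligned reads with STAR to GRCh37 (GENCODE 19, Ensembl 74) and deposited expected counts and FPKM per gene from RSEM 1.3.0. The sources used here do not say whether the kit's molecular labels or strand were used in counting. Expected counts were rounded to whole numbers. A gene was tested where the deposited FPKM was above 1 in at least 1 library, so a gene can pass through its higher line alone. All 8 groups of 2 libraries were fitted together in edgeR 4.0.16 (R 4.3.3) with TMM scaling and the quasi-likelihood test, with Benjamini-Hochberg adjustment over 18925 genes. Calls used the study's own limits: adjusted p below 0.05, with a log2 difference that exceeds 0.5 in size. The contrast of day 1 with the mean difference of days 2, 4 and 6 came from the same fit.

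Libraries held 20270033 to 31006448 counts, and counting intervals are exact at 95% and cover counting error only. The genes named were HCFC2, HCFC1 and OGT, the 15 largest differences in each direction with a mean count of at least 100 in the higher line and pairs that did not overlap, the 10 largest contrasts in each direction, and members of 46 gene lists. The members and lists were chosen with earlier results of these data known. Gene positions are those of GENCODE 44 on GRCh37, and promoters are from RefSeq, where 11583 of the 18925 genes matched. The fitting procedure was tested on simulated data. Alternatives were other scalings and filters, DESeq2 1.42.0, a log2 threshold of 1, the replicate number as a block, the 4 day 1 libraries alone and leaving out each library. A few genes and a list are not reported here.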

Additional observations from a re-analysis of the deposited data

Results flagged for a closer look

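The results given here differed between days, by the contrast of the day 1 line difference with the mean line difference of days 2, 4 and 6 in edgeR. With adjusted p below 0.05 and a contrast over 0.5 in size on the log2 scale, the day 1 difference was above that of the later days in 2449 genes and below it in 1357. The largest above, on the log2 scale, were LTA at 7.46 (SE 1.53), XRCC6P1 at 6.13, FAM209A at 5.56, SOGA3 at 5.13, STMN4 at 4.95 (SE 1.2), MYPN at 4.72, TCEAL7 at 4.69, GBP2 at 4.68, NPR3 at 4.66 and SBSN at 4.66. LTA, STMN4, FAM209A and TCEAL7 had at most 3 counts in HCF-2 WT on day 1, so their fitted contrasts depend on few counts and are not bounds. Among genes of the lists and of the largest day 1 rises, the contrast was 4.49 for ANKRD1, 4.10 for DNAH17, 3.77 for PPP1R15A, 3.72 for HSPB8, 3.36 for EGR1 and 2.49 for GADD45A.

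The largest below were ACTL8 at -2.07, SNORD3B-1 at -2.06, SLIT1 at -1.97, SNORD3D at -1.96, RNU12 at -1.92, SNORD3B-2 at -1.78, SNORD3A at -1.52, IFIT1 at -1.45, HIST1H3A at -1.43 and FLJ27365 at -1.36. FLJ27365 was not called on day 1 itself, at 14.5 CPM in both HCF-2 WT libraries and 9.04 and 10.2 CPM in HCF-2 Fn3nc*. Reads of the U3 genes and of histone genes are divided among near-identical copies.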

How the results depend on the processing

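The 4 counts of calls (3539 higher, 2926 lower, 2449 above and 1357 below the later days) stayed within 1.5 times of these values under other filters, RLE and upper-quartile scaling, DESeq2, the replicate block and, for the day 1 counts, the 4 day 1 libraries alone. With a log2 threshold of 1 they were 1859, 745, 1080 and 194, since that threshold takes fewer genes. Without any FPKM filter, 4279 genes were higher and 3588 lower of 42969. A new fit of the genes with FPKM above 1 in every library gave 2394 and 2290 of 12765. Leaving out 1 library at a time gave 3036 to 3271 higher, 2694 to 3107 lower, 2010 to 2466 above and 1124 to 1579 below. DESeq2 gave 3229 higher and 2767 lower. RLE and upper-quartile scaling moved the median of all genes by at most 0.011. The replicate numbers did not pair the samples (correlation of deviations 0.025 on day 1), and the replicate block gave 3482 higher, 2895 lower, 2405 above and 1315 below. No called gene among the 182 named changed direction in an alternative that tested it. With FPKM above 1 in every library only 123 of them were tested, without ANKRD1, NPPB, STMN4 and DNAH17. With FPKM above 1 in both libraries of a day 1 group, 176 were tested. With 2 libraries a group, the spread is shared across 8 groups, and low genes in HCF-2 WT rest on few counts.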
